A study of Mus musculus with 8 samples.

Results

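The solute carriers that move amino acids, sugars and monocarboxylates across membranes were compared between livers of METTL3-HKD and METTL3-Flox mice. The genes were taken by symbol from the deposited table as the protein-coding members of the families Slc1, Slc2, Slc3, Slc5, Slc6, Slc7, Slc16, Slc36, Slc38 and Slc43, with Slc2a1 and Slc7a11 left out. This gave 101 of the 54532 genes listed. All mice underwent 1 h of partial warm ischemia and 6 h of reperfusion, and whole liver was sequenced from 4 METTL3-HKD and 4 METTL3-Flox mice. METTL3-HKD mice (METTL3 flox/-; Alb-iCre) are heterozygous for the loss of METTL3, an RNA m6A methyltransferase, in cells in which the albumin promoter drives Cre, that is, in hepatocytes. METTL3-Flox mice (METTL3 flox/flox) are littermates that carry the floxed allele without Cre, so Cre itself differs between the groups along with METTL3. Both groups had ischemia and reperfusion and no sham livers are compared here, so no value below says how a transporter responded to the operation. The age of the sequenced mice is not given in the labels.

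The liver takes up most amino acids arriving in portal blood and both takes up and releases glucose, and each task uses a different transporter family. Glucose and fructose cross the membrane through the facilitative GLUT carriers (Slc2) or with sodium (Slc5), lactate and other monocarboxylates leave or enter with protons through the MCT carriers (Slc16), and amino acids enter with sodium (Slc1, Slc6, Slc38), with protons (Slc36), by exchange (Slc7) or by facilitated diffusion (Slc43). Several Slc7 carriers reach the membrane only when bound to a heavy chain, Slc3a1 or Slc3a2, and MCT carriers need the membrane proteins Bsg or Emb in the same way.

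The promoters of 3 called transporters are printed as examples of promoters that hold a searched stress-response motif, as those of other called transporters such as Slc7a1 and Slc6a12 also do: Slc16a3 and Slc16a1, the lactate carriers that were higher in METTL3-HKD livers, and Slc36a1, the lysosomal amino acid carrier that was lower. Each line gives the 250 bases before the RefSeq start on GRCm38.p6, from 5′ to 3′ in the direction of the gene, and capitals mark the letters ACGTG (the core of a hypoxia response element), CACGTG (an E-box, which contains ACGTG) or TGACNNNGC (an NRF2 site) on either strand. The windows are chr11:120948817-120949066 (plus strand) for Slc16a3, chr3:104638414-104638663 (plus strand) for Slc16a1 and chr11:55204090-55204339 (plus strand) for Slc36a1.
Slc16a3: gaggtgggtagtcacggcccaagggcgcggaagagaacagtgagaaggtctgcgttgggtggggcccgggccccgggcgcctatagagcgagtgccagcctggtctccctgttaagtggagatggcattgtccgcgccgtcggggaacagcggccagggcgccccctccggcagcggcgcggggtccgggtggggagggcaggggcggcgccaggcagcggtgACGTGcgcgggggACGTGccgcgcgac
Slc16a1: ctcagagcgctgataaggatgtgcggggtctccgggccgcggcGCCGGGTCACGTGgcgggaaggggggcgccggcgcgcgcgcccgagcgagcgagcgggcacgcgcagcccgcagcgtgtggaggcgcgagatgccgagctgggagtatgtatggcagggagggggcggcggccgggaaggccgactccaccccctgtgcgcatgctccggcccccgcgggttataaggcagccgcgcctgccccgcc
Slc36a1: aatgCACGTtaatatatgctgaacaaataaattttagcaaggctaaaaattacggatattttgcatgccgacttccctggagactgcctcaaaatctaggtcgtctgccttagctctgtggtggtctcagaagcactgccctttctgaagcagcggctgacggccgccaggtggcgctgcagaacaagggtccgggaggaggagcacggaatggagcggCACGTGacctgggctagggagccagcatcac
The Slc16a3 window lies within the interval of the gene in the table, whose first base is upstream of the RefSeq start. In Slc16a3, ACGTG began 27 and 14 bases before the start. In Slc16a1, an NRF2 site began 207 bases before the start and overlapped an E-box that began 200 bases before it. In Slc36a1, ACGTG lay on the opposite strand 246 to 242 bases before the start, and an E-box began 31 bases before it.

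RefSeq promoters were given for 73 of the 101 transporters and for 40 of those tested. Over windows from 250 bases before to 50 after the start, ACGTG was held by 27.1% of the 59 windows of tested transporters and by 19.6% of all 32851 windows. The corresponding shares were 11.9% and 7.15% for CACGTG, 20.3% and 12.4% for TGACNNNGC, 10.2% and 7.81% for the AP-1 site TGANTCA, and 5.08% and 3.97% for TGATGNAA, the core bound by ATF4 with C/EBP proteins. Among transporters higher in METTL3-HKD livers 3 of 8 windows held ACGTG, and among those lower 4 of 21 windows did. These counts were 1 and 1 for CACGTG, 2 and 2 for TGACNNNGC, 1 and 2 for TGANTCA, and 0 and 2 for TGATGNAA. None of these motifs was found in any window of the called Slc2a6, Slc36a4, Slc5a3, Slc16a9, Slc2a5, Slc2a8 and Slc38a4. These are descriptions of letters in a window, some genes have several windows, and no test was run on them.

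The livers were sequenced to 15861245 to 18434488 reads on genes. Values are FPKM (fragments divided by the length of the gene and by the size of the library), always listed in the order of livers 1 to 4 of a group, and log2 fold changes are METTL3-HKD minus METTL3-Flox on the log2(FPKM + 0.1) scale, which understates the change of genes near 0.1 FPKM. Genes were called higher or lower at a Benjamini-Hochberg adjusted p under 0.05 from limma, and upregulated or downregulated where the log2 fold change also reached 1 in size. The whole-gene level of Mettl3 was 1.33 ± 0.181 FPKM (SD, n = 4) in METTL3-HKD livers and 1.5 ± 0.282 FPKM (SD, n = 4) in METTL3-Flox livers (log2 fold change −0.16, limma adjusted p = 0.556), its groups overlapped, and it did not check the genotype labels. METTL3-HKD livers 1 and 3 contained skeletal muscle transcripts, with a summed level of 56.4 and 98.1 FPKM over 5 muscle genes against at most 0.0428 FPKM in the other 6 livers. In bulk liver, fewer cells of a type and less RNA per cell cannot be told apart.

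Of the 101 transporters, 56 passed the minimum mean of 0.1 FPKM over the 8 livers and were tested. Another 14 had 0 reads in every liver, which with a floor of 3 reads allows levels of up to 0.0192 to 0.121 FPKM depending on gene length and library, and the remaining 31 had some reads but a mean of at most 0.0885 FPKM. Of those tested, 10 were higher in METTL3-HKD livers (17.9%, against 9.05% of all 16645 genes tested) and 9 were lower (16.1%, against 6.63%). At the additional fold threshold, 6 were upregulated (10.7%, against 4.7% of all genes) and 3 were downregulated (5.36%, against 1.52%). All METTL3-HKD livers were above all METTL3-Flox livers for 10 transporters (17.9%, against 12.7% of all genes), and below for 12 (21.4%, against 9.95%). The share called also depends on level: among genes of 10 FPKM or more, 8.33% were higher and 14.3% lower, and of the 15 transporters at that level 2 were higher and 4 lower. The median log2 fold change was −0.22 over the tested transporters and 0.00 over all genes.

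The count of lower transporters was the less firm of the pair. It fell from 9 to 4 when each library was scaled to its own reads on genes, which moved the median of all genes to 0.20 and that of the transporters to −0.05, while the count of higher ones stayed at 10. It was 3 without METTL3-HKD liver 1, 3 without METTL3-HKD liver 2, 3 without METTL3-Flox liver 2, 1 without METTL3-Flox liver 3 and 5 without METTL3-Flox liver 4, and the count of higher transporters was 5 without METTL3-HKD liver 1 and 6 without METTL3-Flox liver 3. The count of downregulated transporters was between 0 and 1 when METTL3-HKD liver 1, 2 or 4 or any single METTL3-Flox liver was left out. Leaving out both livers with muscle transcripts gave 7 higher, 3 lower, 7 upregulated and 1 downregulated. All 19 called transporters kept their sign in every alternative that tested them, and 6 of them (Slc16a3, Slc2a3, Slc2a6, Slc7a1, Slc3a2 and Slc36a1) kept an adjusted p under 0.05 whichever single liver was left out. A pseudocount of 1 FPKM shrank the log2 fold changes of the low-level genes, to 2.70 for Slc16a3, 1.72 for Slc2a3, 0.84 for Slc2a6, 0.51 for Slc7a1 and −0.41 for Slc16a9, with their adjusted p still under 0.05.

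**Figure D1:**
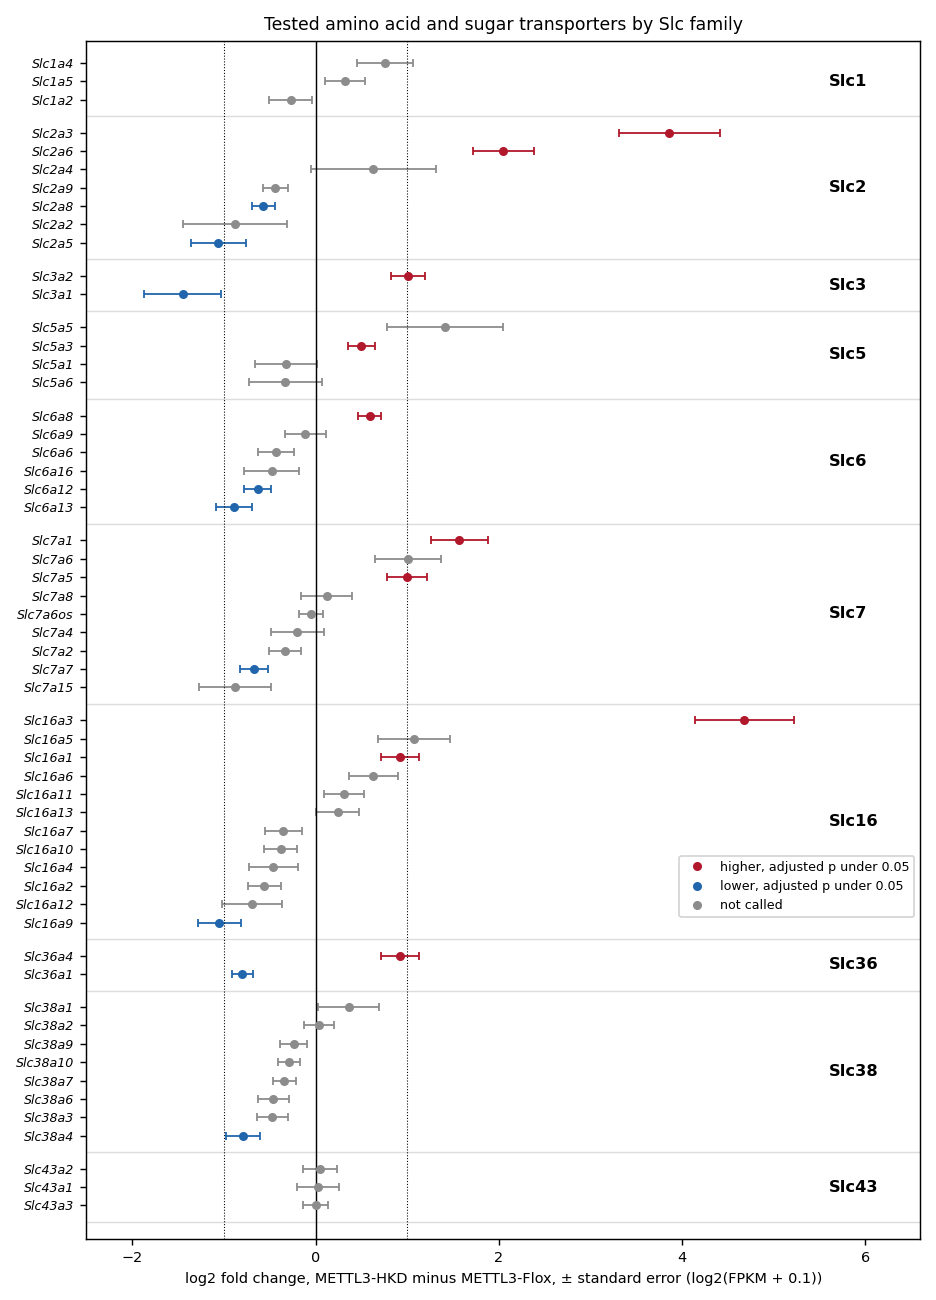
Log2 fold change of each of the 56 tested transporters, METTL3-HKD minus METTL3-Flox on the log2(FPKM + 0.1) scale, grouped by Slc family, with bars of 1 standard error and dotted lines at a log2 fold change of 1 in either direction. The carriers Slc16a3 (4.68), Slc2a3 (3.86) and Slc2a6 (2.05) stand far to the right, whereas most Slc38 members lie left of 0 and the Slc43 members lie near it.

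The monocarboxylate carriers (Slc16) held the transporter with the largest log2 fold change on the log2(FPKM + 0.1) scale. Slc16a3 (MCT4), which exports lactate from strongly glycolytic cells, had 17.8, 4.07, 3.55 and 6.86 FPKM in the METTL3-HKD livers and 0.185, 0.419, 0.0866 and 0.0584 FPKM in the METTL3-Flox livers. The lowest METTL3-HKD liver was thus well above the highest METTL3-Flox liver. The group means were 8.08 ± 6.67 FPKM (SD, n = 4) compared with 0.187 ± 0.164 FPKM (SD, n = 4), a 43.1-fold difference that rests on 341 to 1908 reads in the former livers and 5 to 36 in the latter (log2 fold change 4.68, standard error 0.538, limma adjusted p = 0.00285). The gene (ENSMUSG00000025161) lies on chromosome 11 of GRCm38 from 120948480 to 120960868.

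Slc16a1 (MCT1), the main monocarboxylate carrier of hepatocytes and the most abundant Slc16 member here, had 38.2, 34.2, 24.8 and 24.8 FPKM in the METTL3-HKD livers and 20.7, 11.6, 17 and 15.1 FPKM in the METTL3-Flox livers. Its groups did not overlap, and its mean was 1.89-fold higher in METTL3-HKD livers (log2 fold change 0.92, standard error 0.204, limma adjusted p = 0.0204). The adjusted p lay between 0.0507 and 0.0542 (0.0126 to 0.0870 over all alternatives) when METTL3-HKD liver 1 or 2 or METTL3-Flox liver 3 or 4 was left out. Since the rarer carrier differed more, the ratio of Slc16a1 to Slc16a3 within a liver was 2.14 to 8.40 in METTL3-HKD livers and 27.6 to 259 in METTL3-Flox livers.

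Slc16a9 (MCT9), a carrier of carnitine and creatine, changed the other way, with 0.411, 0.364, 0.286 and 0.195 FPKM in the METTL3-HKD livers and 0.982, 0.688, 0.731 and 0.594 FPKM in the METTL3-Flox livers. Every METTL3-HKD liver was below every METTL3-Flox liver, on 14 to 32 and 37 to 54 reads (log2 fold change −1.05, standard error 0.236, limma adjusted p = 0.0216, or 0.0592 without METTL3-Flox liver 3 and 0.0150 to 0.0646 over all alternatives). Of the 12 tested Slc16 members 2 were higher (16.7%, against 9.05% of all genes tested) and 1 lower (8.33%, against 6.63%). The other 9 had log2 fold changes from −0.69 (Slc16a12) to 1.07 (Slc16a5) without passing the threshold. Slc16a5 passed it without METTL3-Flox liver 2 (1.46, adjusted p = 0.0208, in a range of 0.0208 to 0.216 over all alternatives). Slc16a1 made up 11.9 to 38.5% of the family's summed level, and that sum overlapped between the groups, at 88.2 to 99.2 FPKM in METTL3-HKD and 75.7 to 97.1 FPKM in the METTL3-Flox livers.

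The partner proteins of the MCT carriers did not move together. Emb was upregulated, with 1.52, 0.635, 0.497 and 0.818 FPKM in the METTL3-HKD livers against 0.153, 0.233, 0.105 and 0.108 FPKM in the METTL3-Flox livers (log2 fold change 1.88, limma adjusted p = 0.0104). Bsg, the more abundant partner, had 183 to 191 FPKM against 182 to 253 FPKM (log2 fold change −0.22, limma adjusted p = 0.229). Of 5 lactate and ketone enzymes, 1 was lower (against 6.63% of all genes tested). By limma 0 were higher (0 also at an unadjusted p under 0.05 and by voom). Ldhd, which oxidizes D-lactate, was lower by 0.90 on the log2 scale (adjusted p = 0.0219). Its adjusted p was 0.0615 without METTL3-HKD liver 1 and 0.0514 without METTL3-Flox liver 2 (0.0145 to 0.0643 over all alternatives). Ldha had a log2 fold change of −0.17 (adjusted p = 0.605).

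Among the glucose and fructose carriers (Slc2), 2 of 7 tested members were higher and 2 were lower, against 9.05% and 6.63% of all genes tested. Slc2a3 (GLUT3), a high-affinity glucose carrier of neurons and leukocytes, had 8.43, 1.76, 1.12 and 1.85 FPKM in the METTL3-HKD livers and 0.0874, 0.145, 0.0454 and 0.0257 FPKM in the METTL3-Flox livers. METTL3-HKD liver 1 was the highest by far, yet all 4 METTL3-HKD livers were above all METTL3-Flox livers. The difference in means was 43.3-fold, on 146 to 1228 reads against 3 to 17 reads per liver (log2 fold change 3.86, standard error 0.550, limma adjusted p = 0.00513). Slc2a3 (ENSMUSG00000003153) lies on the minus strand of chromosome 6 from 122727809 to 122801640.

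Slc2a6 (GLUT6), a hexose carrier of lysosomal membranes found in myeloid cells, had 2.01, 1.01, 0.828 and 1.02 FPKM in the METTL3-HKD livers and 0.394, 0.116, 0.164 and 0.193 FPKM in the METTL3-Flox livers, again without overlap. Its mean was 5.62-fold higher (log2 fold change 2.05, standard error 0.332, limma adjusted p = 0.00775).

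Slc2a5 (GLUT5), the fructose carrier, had 0.687, 0.923, 1.82 and 1.25 FPKM in the METTL3-HKD livers and 1.94, 3.40, 1.78 and 2.79 FPKM in the METTL3-Flox livers. METTL3-HKD liver 3 was above METTL3-Flox liver 3, which made Slc2a5 the one called transporter whose groups overlapped (log2 fold change −1.06, standard error 0.300, limma adjusted p = 0.0454; exact permutation test, p = 0.0571). Its call was lost when any single liver other than METTL3-HKD liver 3 was left out (METTL3-HKD liver 1, 2 or 4 or any METTL3-Flox liver, adjusted p from 0.0558 to 0.108), with no minimum level (0.0783), and with each library scaled to its reads on genes (0.0732), and its adjusted p ranged from 0.0182 to 0.108 over all alternatives.

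Slc2a8 (GLUT8), an intracellular hexose carrier, had 3.08, 3.24, 3.85 and 4.38 FPKM in the METTL3-HKD livers and 4.87, 5.65, 5.55 and 5.54 FPKM in the METTL3-Flox livers, a small difference with no overlap (log2 fold change −0.57, standard error 0.127, limma adjusted p = 0.0208). The adjusted p lay between 0.0535 and 0.0604 without METTL3-HKD liver 1 or 2 or METTL3-Flox liver 2, 3 or 4, and was 0.0935 with each library scaled to its reads on genes (0.0149 to 0.107 over all alternatives).

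Slc2a2 (GLUT2), the carrier through which hepatocytes exchange glucose with blood, was the most abundant Slc2 member and varied widely within both groups. It had 7.71, 10.2, 26.4 and 20.1 FPKM in the METTL3-HKD livers and 8.99, 48.7, 24.8 and 44.9 FPKM in the METTL3-Flox livers. METTL3-Flox liver 1 lay within the range of the METTL3-HKD livers, and the difference did not pass the threshold (log2 fold change −0.88, standard error 0.570, limma adjusted p = 0.320). Within a liver, the ratio of Slc2a2 to Slc2a3 was 0.915 to 23.6 in METTL3-HKD livers and 103 to 1740 in METTL3-Flox livers. In METTL3-HKD liver 1, therefore, the leukocyte-type carrier reached a level per length slightly above that of the hepatocyte carrier.

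Of 11 enzymes that act on hexoses after entry, 3 were upregulated and 0 were lower by limma (2 lower at an unadjusted p under 0.05, 1 by voom). Over all tested genes, 4.7% were upregulated and 6.63% were lower. The 3 upregulated enzymes were hexokinases, which trap glucose as its phosphate: Hk2 (log2 fold change 1.55, adjusted p = 0.00986), Hk1 (1.17, adjusted p = 0.0199) and Hkdc1 (1.2, adjusted p = 0.0178). Hk1 had an adjusted p of 0.0504 without METTL3-Flox liver 2 and 0.0507 without METTL3-Flox liver 4 (0.0129 to 0.0528 over all alternatives). That of Hkdc1 was 0.0561 without METTL3-HKD liver 1 and 0.0508 without METTL3-Flox liver 3. Over all alternatives it ranged from 0.00973 to 0.136, with log2 fold changes of 0.3 to 1.83. Hkdc1 was low, with 0.273 to 0.417 FPKM in METTL3-HKD and 0.0686 to 0.133 FPKM (5 to 11 reads) in METTL3-Flox livers.

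**Figure D2:**
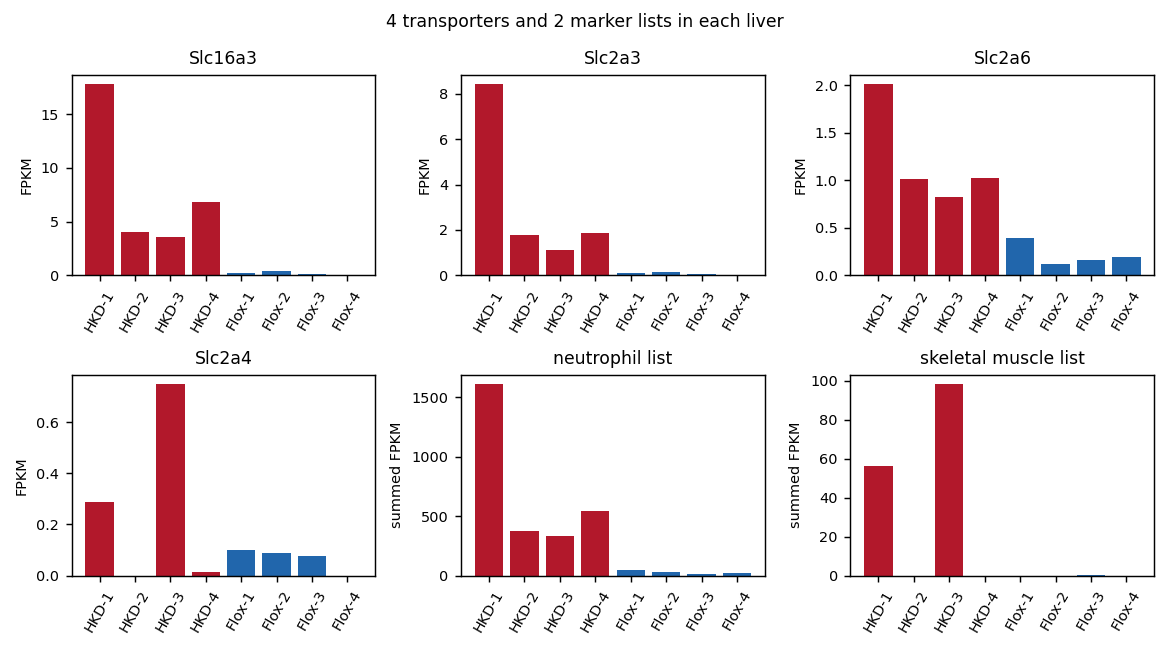
Level in each liver (bars, FPKM from 0) of Slc16a3, Slc2a3, Slc2a6 and the muscle and fat glucose carrier Slc2a4, and the summed FPKM of 7 neutrophil and 5 skeletal muscle genes. METTL3-HKD liver 1 is highest for Slc16a3 (17.8), Slc2a3 (8.43), Slc2a6 (2.01) and the neutrophil list (1610), while Slc2a4 and the muscle list are highest in METTL3-HKD livers 3 and 1.

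Markers of other cells also differed between the groups. Of all tested genes 4.7% were upregulated. All 7 of 7 neutrophil markers were upregulated, with summed levels of 1610, 379, 330 and 544 FPKM in the METTL3-HKD livers and 44.2, 26.0, 12.8 and 24.6 FPKM in the METTL3-Flox livers, and Ly6g was at 0 in METTL3-Flox livers 2, 3 and 4. METTL3-HKD liver 1 had the highest sum, as it had the highest Slc16a3, Slc2a3 and Slc2a6. The same liver also had the highest sums of the monocyte and macrophage (223 FPKM), erythroid (597 FPKM) and cholangiocyte (13.9 FPKM) markers below. Of 6 monocyte and macrophage markers 2 were upregulated (Ccr2 and Itgam), with sums of 86.5 to 223 FPKM against 55.4 to 86.1 FPKM. Most of these sums was Lyz2 (71.9 to 190 FPKM against 33.6 to 60.1 FPKM, limma adjusted p = 0.0542). The macrophage markers Csf1r and Adgre1 had log2 fold changes of −0.58 and −0.68 and were not called (adjusted p = 0.140 and 0.172), so the list did not move in 1 direction. Of 5 erythroid markers 4 were upregulated (sums of 185 to 597 FPKM against 48.2 to 107 FPKM), while the remaining one, Alas2, had a log2 fold change of −0.98 (adjusted p = 0.103). Of 4 tested cholangiocyte markers 3 were upregulated (7.82 to 13.9 FPKM against 3.19 to 6.10 FPKM). The part of these cells in the higher level of Slc16a3, Slc2a3, Slc2a6 or any other transporter was not tested.

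Skeletal muscle expresses Slc2a4 (GLUT4), and this gene, named here after its values were seen, was highest in the livers with muscle transcripts. It had 0.286, 0, 0.748 and 0.0155 FPKM in the METTL3-HKD livers and 0.101, 0.0890, 0.0757 and 0 FPKM in the METTL3-Flox livers, and it was not called (log2 fold change 0.63, limma adjusted p = 0.567). Slc16a3, also a muscle gene, had 17.8, 4.07, 3.55 and 6.86 FPKM in the METTL3-HKD livers. The muscle genes summed to 56.4, 0.0352, 98.1 and 0.0185 FPKM in the same livers. The part of muscle RNA in the level of Slc2a4 or Slc16a3 was not tested.

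**Figure D3:**
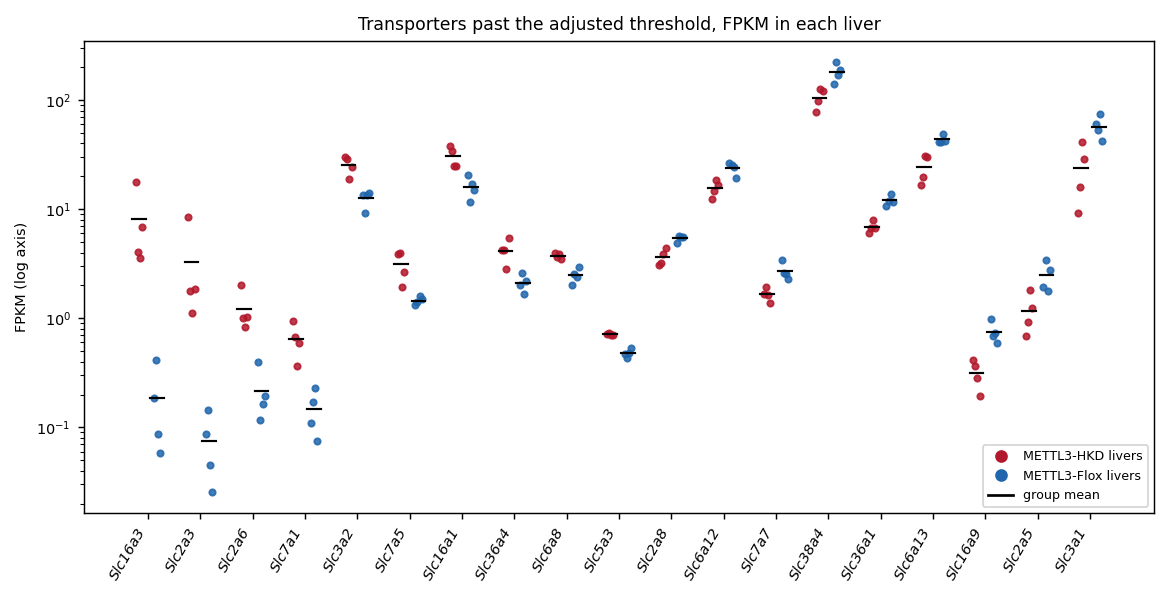
FPKM on a log axis in each of the 4 METTL3-HKD and 4 METTL3-Flox livers (points) and group mean (black line) for the 19 transporters past an adjusted p of 0.05, ordered from the largest positive to the largest negative log2 fold change. The groups are apart for all of them except Slc2a5, and the distance is widest for Slc16a3 and Slc2a3.

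The heavy chains (Slc3) diverged. Slc3a2 (CD98 heavy chain), which carries LAT and related exchangers to the membrane, had 30.0, 28.8, 19.0 and 24.3 FPKM in the METTL3-HKD livers and 13.5, 9.19, 13.4 and 14.2 FPKM in the METTL3-Flox livers. Its groups did not overlap, with 25.5 ± 5.01 FPKM (SD, n = 4) compared with 12.6 ± 2.29 FPKM (SD, n = 4), a 2.03-fold difference (log2 fold change 1.01, standard error 0.182, limma adjusted p = 0.0108). The gene (ENSMUSG00000010095) lies on the minus strand of chromosome 19 from 8706882 to 8723369.

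Slc3a1 (rBAT), the heavy chain of the cystine and dibasic amino acid exchanger, had 9.18, 15.9, 41.4 and 29.0 FPKM in the METTL3-HKD livers and 59.8, 52.6, 73.8 and 42.5 FPKM in the METTL3-Flox livers. Every METTL3-HKD liver was below every METTL3-Flox liver, but only narrowly between METTL3-HKD liver 3 and METTL3-Flox liver 4 (log2 fold change −1.45, standard error 0.418, limma adjusted p = 0.0472). The call was lost without METTL3-HKD liver 1, 2 or 4 or any single METTL3-Flox liver (adjusted p from 0.0572 to 0.116), with a pseudocount of 1 FPKM (0.0505), with no minimum level (0.0792) and with each library scaled to its reads on genes (0.0503), in a range of 0.0155 to 0.116 over all alternatives. Exons of Prepl on the opposite strand share 601 bases, or 26.1%, of the length of Slc3a1, and the strand setting of the counting is not stated, so reads of the neighbouring genes cannot be told apart there. Slc7a9, the exchanger that Slc3a1 carries in kidney, was named after its values were seen and had at most 2 reads in any liver. The ratio of Slc3a1 to Slc3a2 was 0.306 to 2.18 in METTL3-HKD livers and 2.99 to 5.72 in METTL3-Flox livers.

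Of the exchangers and cationic carriers (Slc7), 2 of 9 tested were upregulated and 1 was lower, against 4.7% and 6.63% of all genes tested. Slc7a5 (LAT1), which exchanges large neutral amino acids and is bound by Slc3a2, had 3.91, 3.93, 1.94 and 2.68 FPKM in the METTL3-HKD livers and 1.31, 1.40, 1.60 and 1.49 FPKM in the METTL3-Flox livers. The groups did not overlap (log2 fold change 1.00, standard error 0.219, limma adjusted p = 0.0194, or 0.0519 without METTL3-HKD liver 1 and 0.00447 to 0.0519 over all alternatives). Slc7a1 (CAT1), the widely expressed arginine and lysine carrier, had 0.940, 0.671, 0.365 and 0.593 FPKM against 0.110, 0.172, 0.228 and 0.0754 FPKM, again with every METTL3-HKD liver above every METTL3-Flox liver. Its mean was 4.39-fold higher (log2 fold change 1.57, standard error 0.312, limma adjusted p = 0.0144).

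Slc7a2 (CAT2), the cationic amino acid carrier typical of liver, was far more abundant than Slc7a1 and was not called. It had 25.6, 20.2, 29.0 and 26.8 FPKM in the METTL3-HKD livers and 22.9, 38.1, 31.3 and 36.5 FPKM in the METTL3-Flox livers, with overlapping groups (log2 fold change −0.33, standard error 0.176, limma adjusted p = 0.234). Slc7a7 (y+LAT1), a partner of Slc3a2 that is prominent in macrophages, had 1.68, 1.93, 1.65 and 1.38 FPKM in the METTL3-HKD livers and 3.44, 2.60, 2.54 and 2.29 FPKM in the METTL3-Flox livers, without overlap (log2 fold change −0.67, standard error 0.155, limma adjusted p = 0.0237). The adjusted p of Slc7a7 lay between 0.0517 and 0.0568 without METTL3-HKD liver 1 or 4 or METTL3-Flox liver 2 or 3, and was 0.0847 with each library scaled to its reads on genes (0.0183 to 0.114 over all alternatives). Exons of Oxa1l on the opposite strand share 7.0% of the length of Slc7a7.

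Slc7a7 thus fell while Slc7a5, which binds the same heavy chain, rose. Kupffer cell markers were also lower in METTL3-HKD livers: 4 of 5 passed the test (Clec4f, Vsig4, Timd4 and Cd5l), against 6.63% of all genes tested. None was at 0, and their sums were 115, 132, 59.1 and 60.7 FPKM in the METTL3-HKD livers and 336, 134, 188 and 181 FPKM in the METTL3-Flox livers. The part of Kupffer cells in the lower level of Slc7a7 was not tested. The symbol rule also took in Slc7a6os, which lies beside Slc7a6 and is not a transporter, at 3.71 to 4.97 FPKM over the 8 livers (log2 fold change −0.05, limma adjusted p = 0.827).

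The sodium-coupled neutral amino acid carriers (Slc38) made up the largest summed level of the families. Slc38a4 (SNAT4), a carrier of small neutral and cationic amino acids that is abundant in liver, had the highest mean FPKM over the 8 livers, at 15.7 to 25.6% of the summed level in each liver. It had 77.6, 98.1, 125 and 120 FPKM in the METTL3-HKD livers and 141, 222, 171 and 188 FPKM in the METTL3-Flox livers. The groups did not overlap, with 105 ± 21.7 FPKM (SD, n = 4) compared with 181 ± 33.7 FPKM (SD, n = 4), a 1.72-fold difference (log2 fold change −0.79, standard error 0.185, limma adjusted p = 0.0250). The adjusted p lay between 0.0555 and 0.0627 without METTL3-HKD liver 1 or 2 or METTL3-Flox liver 2, 3 or 4, and was 0.0614 with each library scaled to its reads on genes (0.0142 to 0.0865 over all alternatives).

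No other Slc38 member passed the threshold. Of the 8 tested, 0 were higher by limma (0 also at an unadjusted p under 0.05 and by voom) and 1 was lower (5 at an unadjusted p under 0.05, 1 by voom). Over all tested genes, 6.63% were lower. Every METTL3-HKD liver was below every METTL3-Flox liver for 4 of the 8, against 9.95% of all genes tested. Slc38a3 (SNAT3), the glutamine carrier of hepatocytes, named after its values were seen, had 87.8, 90.7, 133 and 124 FPKM in the METTL3-HKD livers and 137, 183, 135 and 141 FPKM in the METTL3-Flox livers (log2 fold change −0.47, limma adjusted p = 0.0910). Slc38a2 (SNAT2), the member known to rise with amino acid shortage and also named after its values were seen, had 12.3 to 19.6 FPKM against 14.1 to 17.5 FPKM (log2 fold change 0.04, limma adjusted p = 0.891). The summed level of the family was 214, 231, 302 and 297 FPKM in the METTL3-HKD livers and 331, 465, 361 and 376 FPKM in the METTL3-Flox livers. On this deposited scale no METTL3-HKD liver reached the lowest METTL3-Flox liver. Scaling to reads on genes multiplies METTL3-HKD liver 3 by 1.016 and METTL3-Flox liver 1 by 0.8402, which puts the former above the latter, so the groups then overlap.

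Among the sodium- and chloride-coupled carriers (Slc6), neighbours on chromosome 6 were lower together. Slc6a13 (GAT2), a carrier of GABA and taurine in hepatocytes, and Slc6a12 (BGT1), a carrier of betaine and GABA, are 5342 bases apart, from 121300227 to 121337733 and from 121343076 to 121365775. Slc6a13 had 16.6, 19.7, 30.4 and 30.3 FPKM in the METTL3-HKD livers and 41.6, 41.6, 48.6 and 42.3 FPKM in the METTL3-Flox livers. Slc6a12 had 12.4, 14.6, 18.6 and 16.5 FPKM in the METTL3-HKD livers and 26.7, 25.4, 24.4 and 19.4 FPKM in the METTL3-Flox livers. For both genes every METTL3-HKD liver was below every METTL3-Flox liver.

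The log2 fold change of Slc6a13 was −0.89 (standard error 0.197, limma adjusted p = 0.0205), with an adjusted p of 0.0541 without METTL3-HKD liver 2 and 0.0623 without METTL3-Flox liver 3 (0.0131 to 0.0623 over all alternatives). That of Slc6a12 was −0.63 (standard error 0.147, limma adjusted p = 0.0242), with an adjusted p between 0.0563 and 0.0666 without METTL3-HKD liver 1 or 2 or METTL3-Flox liver 2 or 3 (0.0157 to 0.0678 over all alternatives). Slc6a8, the creatine carrier, rose in the same family. It had 3.98, 3.65, 3.86 and 3.53 FPKM in the METTL3-HKD livers and 2.0, 2.55, 2.39 and 2.96 FPKM in the METTL3-Flox livers, without overlap (log2 fold change 0.59, standard error 0.128, limma adjusted p = 0.0188, or 0.0527 without METTL3-HKD liver 1 and 0.0556 without METTL3-Flox liver 3, in a range of 0.0133 to 0.127 over all alternatives). The other 3 tested Slc6 members had log2 fold changes from −0.48 to −0.11 and were not called.

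The proton-coupled carriers (Slc36) had 2 tested members, and both were called, in opposite directions. Of all tested genes 9.05% were higher and 6.63% lower. Slc36a1 (PAT1), which moves small neutral amino acids out of lysosomes, had 6.11, 6.69, 7.98 and 6.71 FPKM in the METTL3-HKD livers and 10.6, 12.0, 13.9 and 11.7 FPKM in the METTL3-Flox livers. The replicates lay close together and the groups well apart (log2 fold change −0.80, standard error 0.116, limma adjusted p = 0.00532). Slc36a1 (ENSMUSG00000020261) lies on chromosome 11 from 55204350 to 55236330. Slc36a4 (PAT4), a high-affinity carrier of proline and tryptophan, had 4.2, 4.18, 2.80 and 5.41 FPKM in the METTL3-HKD livers and 2.01, 2.59, 1.66 and 2.18 FPKM in the METTL3-Flox livers, also without overlap (log2 fold change 0.92, standard error 0.206, limma adjusted p = 0.0209). Its adjusted p was 0.0558 without METTL3-HKD liver 1, 0.0523 without METTL3-HKD liver 2 and 0.0605 without METTL3-Flox liver 3 (0.00683 to 0.0605 over all alternatives).

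In the remaining families 1 member was called. Slc5a3, the sodium-coupled carrier of myo-inositol, named after its values were seen, had 0.720, 0.739, 0.710 and 0.710 FPKM in the METTL3-HKD livers and 0.471, 0.437, 0.476 and 0.535 FPKM in the METTL3-Flox livers. The difference was small and without overlap (log2 fold change 0.50, standard error 0.147, limma adjusted p = 0.0493), and its call was lost without any of the 8 livers (0.0672 to 0.114) and with no minimum level (0.122), in a range of 0.0182 to 0.183 over all alternatives. Exons of Mrps6 (mean 3.26 FPKM) on the same strand share 159 bases, or 1.46%, of the length of Slc5a3. Of 4 tested Slc5 members 0 were lower by limma, at an unadjusted p under 0.05 or by voom, and the most abundant, the biotin and pantothenate carrier Slc5a6, had 1.08 to 2.18 FPKM in METTL3-HKD and 0.899 to 3.54 FPKM in the METTL3-Flox livers (log2 fold change −0.33, adjusted p = 0.612). Exons of Atraid on the opposite strand share 9.92% of the length of Slc5a6.

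Of 3 tested Slc1 members 0 were called in either direction by limma or voom, and 1 was higher at an unadjusted p under 0.05. Slc1a2 (GLT-1), the glutamate carrier of hepatocytes around the central vein, had 4.43, 4.67, 7.43 and 7.17 FPKM in the METTL3-HKD livers and 6.67, 8.94, 4.88 and 8.04 FPKM in the METTL3-Flox livers, with overlapping groups (log2 fold change −0.27, standard error 0.233, limma adjusted p = 0.469). Of 3 tested Slc43 members 0 were called by limma, at an unadjusted p under 0.05 or by voom. Slc43a3, a purine nucleobase carrier, had 7.07, 6.29, 8.63 and 7.05 FPKM against 6.92, 7.08, 6.19 and 8.96 FPKM (log2 fold change 0.00, standard error 0.138, limma adjusted p = 0.996). The estimate took either sign under other scalings and with single livers left out.

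**Figure D4:**
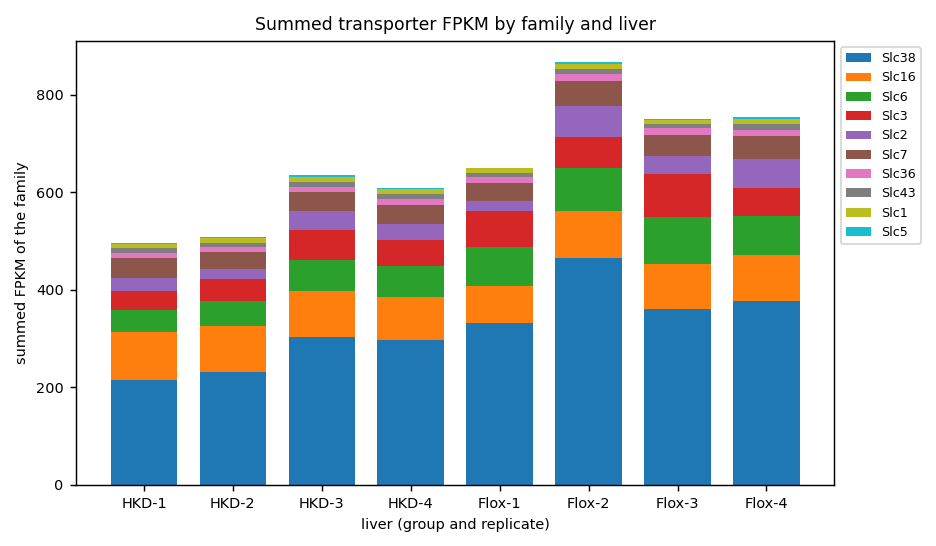
Summed FPKM of the transporters in each of the 8 livers, stacked by Slc family from 0. The whole stack reaches 495 to 634 FPKM in the METTL3-HKD livers and 650 to 867 FPKM in the METTL3-Flox livers, and the Slc38 and Slc6 layers are lower in every METTL3-HKD liver than in any METTL3-Flox liver. Levels are on the deposited scale, and with scaling to reads on genes the whole and Slc38 sums overlap between the groups.

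Summed over all 101 transporters, the level was 495, 509, 634 and 609 FPKM in the METTL3-HKD livers and 650, 867, 750 and 754 FPKM in the METTL3-Flox livers, or 562 ± 69.9 FPKM (SD, n = 4) compared with 755 ± 88.4 FPKM (SD, n = 4). The sum is led by a few carriers and was given no test. It is on the deposited scale. Scaling to reads on genes multiplies METTL3-Flox liver 1 by 0.8402 and METTL3-HKD livers by 1.0082 to 1.1669, after which the groups overlap. The Slc6 sum was 44.8, 51.7, 65.2 and 63.7 FPKM against 81.0, 88.0, 97.0 and 80.9 FPKM. The Slc7 sum was 34.2 to 40.5 FPKM against 35.6 to 49.5 FPKM and the Slc2 sum 21.7 to 38.9 FPKM against 20.9 to 65.4 FPKM, and in both families the groups overlapped. The summed level of 5 hepatocyte markers was 20600 to 30700 FPKM in METTL3-HKD and 26600 to 30300 FPKM in the METTL3-Flox livers, with 0 of 5 called by limma, at an unadjusted p under 0.05 or by voom. It was lowest in METTL3-HKD livers 1 and 2, in which Slc38a4, Slc38a3, Slc3a1, Slc6a13 and Slc6a12 were lowest as well. Slc16a1 was instead highest in these livers (38.2 and 34.2 FPKM). Slc7a2 had 25.6 and 20.2 FPKM there, against 22.9 to 38.1 FPKM in the METTL3-Flox livers. The part of hepatocyte RNA in the level of any of these carriers was not tested.

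Of 33 tested enzymes that break down amino acids after entry, 7 were lower in METTL3-HKD livers (Uroc1, Cth, Cbs, Bhmt, Bcat2, Bckdha and Agxt) and 1 was higher. Of all tested genes 6.63% were lower and 9.05% higher, and of those at 10 FPKM or more, the class of most of these enzymes, 14.3% were lower and 8.33% higher. The largest decrease was that of Bhmt, which uses betaine to remethylate homocysteine, from 203, 688, 362 and 417 FPKM in the METTL3-Flox livers to 109, 116, 132 and 187 FPKM in the METTL3-HKD livers (log2 fold change −1.52, limma adjusted p = 0.0209). The enzymes of the transsulfuration pathway, Cth and Cbs, had log2 fold changes of −0.76 (adjusted p = 0.0117) and −0.78 (adjusted p = 0.0340). Of the 7 lower enzymes, Cth and Bcat2 stayed called in every alternative (largest adjusted p 0.0476 and 0.0436), and the other 5 did not without METTL3-Flox liver 3 (adjusted p from 0.0556 to 0.0856). Without METTL3-HKD liver 1, the calls of Uroc1, Cbs, Bhmt and Agxt were lost (0.0531 to 0.0822), without METTL3-HKD liver 2 those of the same enzymes (0.0516 to 0.0780), and without METTL3-HKD liver 4 that of Cbs (0.0636). Without METTL3-Flox liver 2, the calls of Uroc1 (0.0563) and Bckdha (0.0603) were lost, and without METTL3-Flox liver 4 those of Cbs (0.0632) and Bhmt (0.0529). With each library scaled to its reads on genes, Cbs (0.0580), Bckdha (0.0744) and Agxt (0.0536) were not called, which left 4 of the 7. Among 13 tested amino acid and sugar transporters of other families, 0 were higher by limma, at an unadjusted p under 0.05 or by voom, and 1 was lower, the lysosomal sialic acid carrier Slc17a5 (log2 fold change −0.40, adjusted p = 0.0296). Its call was lost without METTL3-HKD liver 1 or 2 or METTL3-Flox liver 2, 3 or 4 (0.0664 to 0.0832) and with each library scaled to its reads on genes (0.341).

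Each called transporter except Slc2a5 had an exact permutation p of 0.0286, two-sided, the smallest that 4 livers against 4 allow. Reads shared between paralogs were not examined, and each liver was taken as 1 mouse, as the labels number them.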

How the data were processed

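Livers of 4 METTL3-HKD and 4 METTL3-Flox mice were compared, grouped by the sample labels. The authors deposited FPKM for 54532 genes, already scaled between libraries. The submitters' processing notes name GRCm38 and mm10, and the aligner, counting and strand setting are not given in the sources used here. FPKM multiplied by gene length and an effective library size gave whole reads (within 0.02) for 100% of the non-zero values, so depth, the floor of 3 reads (counting error only) and voom used rebuilt reads. Coordinates are those of the table, and 99 of 101 members had the same ones in GENCODE M21.

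The 16645 genes averaging 0.1 FPKM or more were fitted together on log2(FPKM + 0.1) with limma 3.58.1 (lmFit, eBayes with trend, two-sided) under R 4.3.3, and p-values were adjusted over all of them by Benjamini-Hochberg. Exact permutation tests enumerated every arrangement of 4 livers against 4 in Python 3.11.15. The fitting code was run on simulated data with planted changes larger than most of those called here. That run cannot show how reliably smaller changes are found. Transporters were named if called with a log2 fold change of 1 or more in size, if called with a mean of 1 FPKM or more, or if the most abundant tested member of a family. The members and lists were chosen with earlier results of these data known. Promoters are from RefSeq tables of GRCm38.p6.

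Results were recomputed with a larger pseudocount (1 FPKM), a higher minimum mean (1 FPKM) or none, a replicate block, scaling to reads on genes, array quality weights, voom with TMM scaling, and each liver left out. Omission of METTL3-HKD livers 1 and 3 was added after seeing the data. The labels name no batch. Some single genes of the lists are not reported here.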

Additional observations from a re-analysis of the deposited data

Results flagged for a closer look

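A gene or family sum was noted where the highest or lowest of the 4 livers of a group lay apart from the other 3 by more than Dixon's critical share of the group's range. Of 112 groups examined, 7 met this, and chance gives about 1 in 20. Slc2a3 had 8.43 FPKM in METTL3-HKD liver 1 (gap 0.900 of the range), and Slc2a6 had 2.01 FPKM in the same liver (0.836). That liver also had the highest marker sums of neutrophils (1610 FPKM), monocytes and macrophages (223 FPKM), erythroid cells (597 FPKM) and cholangiocytes (13.9 FPKM). Without METTL3-HKD liver 1, both stayed called. Slc2a8 had 4.87 FPKM in METTL3-Flox liver 1, the lowest of its group (0.854). Slc3a2 had 9.19 FPKM in METTL3-Flox liver 2, the lowest of its group (0.840). Slc6a13 had 48.6 FPKM in METTL3-Flox liver 3, the highest of its group (0.896). Slc38a3 had 183 FPKM in METTL3-Flox liver 2, the highest of its group (0.884). Bckdha, a branched-chain amino acid enzyme, had 14.8 FPKM in METTL3-HKD liver 1, the lowest of its group (0.831).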

How the results depend on the processing

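Against 10 higher, 9 lower, 6 upregulated and 3 downregulated transporters, the lower count was 4 with each library scaled to its reads on genes and 3 without the livers with muscle transcripts. The upregulated count was 2 with a pseudocount of 1 FPKM. The downregulated count was 0 with that pseudocount, 1 with no minimum, 1 with a replicate block, 0 with each library scaled to its reads on genes and 1 without the livers with muscle transcripts. With single livers left out the counts ranged from 5 to 10 (higher), 1 to 10 (lower), 4 to 9 (upregulated) and 0 to 4 (downregulated). The causes were not tested, beyond the smaller number of samples. Same-numbered livers did not deviate together (correlations of deviations from −0.084 to 0.071). This cannot show whether the numbers pair animals, and the labels do not say. With the replicate block 13 of the 19 calls were made and 1 further transporter was called. The calls of Slc2a5, Slc3a1, Slc5a3, Slc6a12, Slc6a8 and Slc7a5 were lost. Slc43a3, at 0.00, took values of 0.21 with scaling to reads on genes, 0.01 with voom and −0.09 to 0.10 with single livers left out, and other values near 0 changed sign as well: Mettl3 (0.05), Ldha (0.05) and Slc7a6os (0.16) with scaling to reads on genes, Slc7a6os also with array quality weights (0.03), without the livers with muscle transcripts (0.09) and with single livers left out (−0.12 to 0.02), and Slc38a2 with single livers left out (−0.05 to 0.17). Array quality weights and voom called all 19, and the other alternatives moved no count of calls by more than 1.5 times. In METTL3-Flox livers, Slc2a3 and Slc16a3 rest on 3 to 36 reads, which limits the precision of their fold changes.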
